A study of Mus musculus with 19 samples.

Results

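The genes described here are H19 and 9 further growth genes, most of them imprinted, in the dorsal root ganglia of MaFIA mice: H19, Igf2, Nctc1, Dlk1, Meg3, Cdkn1c, Plagl1, Peg3, Grb10 and Mest. They were chosen by name, with earlier results of these same data known. Nctc1 in particular had been seen among the genes with the largest fall under AP20187 in operated mice. The levels, fold changes and tests of these 10 genes are therefore a description of the libraries and not independent evidence. All 10 were found among the 36682 genes of the deposited table of counts and FPKM, and all 10 were among the 22778 genes tested.

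Each library came from the pooled L3 to L5 ganglia of 1 male mouse, on the side of the operated knee in operated mice. All mice of the 4 groups were homozygous for the MaFIA transgene, an inducible Fas construct under the Csf1r promoter, which is active in macrophages and other myeloid cells. AP20187, the dimerizer that triggers the Fas domain, or vehicle was injected intraperitoneally on 5 consecutive days. Destabilization of the medial meniscus (DMM), a surgical model of knee osteoarthritis, had been done 8 weeks before the injections, and naive mice were age-matched without surgery. Vehicle was given to 5 naive and 5 DMM mice, and AP20187 to 4 naive and 5 DMM mice. No group lacked the transgene, so the effect of AP20187 itself and that of the triggered Fas domain cannot be told apart. Ages in weeks are not given in the labels. Libraries are named below by group and by the number in the labels.

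Imprinted genes are expressed mainly from the copy inherited from one parent. H19, Meg3 and Cdkn1c are expressed from the maternal copy, and Igf2, Dlk1, Plagl1, Peg3 and Mest from the paternal copy. Grb10 is maternal in most tissues and paternal in neurons. H19 and Igf2 share enhancers, and an insulator between them decides on each parental copy which of the pair is transcribed. Many of these genes are high in the embryo and fall after birth, while Igf2 stays on in the membranes around the adult nervous system and Meg3 and Peg3 stay on in neurons. The counts do not separate the parental copies, so imprinting itself was not measured.

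The positions in the files, on GRCm39 as named in the submitters' processing notes, place the genes in several clusters. On chromosome 7, minus strand, lie Nctc1 (ENSMUSG00000087090, chr7:142098346-142112337), H19 (ENSMUSG00000000031, chr7:142129262-142131886), Igf2 (ENSMUSG00000048583, chr7:142204503-142215607) and Cdkn1c (ENSMUSG00000037664, chr7:143012076-143014787). The gap from Nctc1 to H19 is 16.9 kb and that from H19 to Igf2 is 72.6 kb. Peg3 (ENSMUSG00000002265, chr7:6706891-6733420) lies on the minus strand of the same chromosome, far from the other 4. Dlk1 (ENSMUSG00000040856, chr12:109418749-109429262) and Meg3 (ENSMUSG00000021268, chr12:109506879-109538165) are on the plus strand of chromosome 12, with 77.6 kb between them. Plagl1 (ENSMUSG00000019817, chr10:12936248-13006726, plus strand), Grb10 (ENSMUSG00000020176, chr11:11883094-11976732, minus strand) and Mest (ENSMUSG00000051855, chr6:30723546-30748461, plus strand) each lie alone. Mest overlaps 909 bases of Copg2 and Igf2 overlaps 2178 bases of Igf2os, both on the opposite strand. Libraries were stranded, but whether the counting used the strand is not given in the sources used here, so reads in those overlaps could belong to either gene.

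Of the 10 genes, 4 are also hosts of microRNA genes. The mature sequences are shown because they are the products through which these host transcripts can act on other RNAs. They are RefSeq sequences written 5′ to 3′, with the seed (bases 2 to 8) in capitals. H19 hosts miR-675, Igf2 hosts miR-483, Mest hosts miR-335 and Meg3 hosts miR-770 and miR-1906.
miR-675-5p: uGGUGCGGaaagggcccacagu
miR-675-3p: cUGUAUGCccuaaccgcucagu
miR-483-5p: aAGACGGGagaagagaagggag
miR-483-3p: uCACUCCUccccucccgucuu
miR-335-5p: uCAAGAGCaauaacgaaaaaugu
miR-335-3p: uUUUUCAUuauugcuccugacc
miR-770-5p: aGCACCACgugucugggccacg
miR-770-3p: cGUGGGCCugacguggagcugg
miR-1906: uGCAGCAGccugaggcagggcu
The 9 mature sequences hold 9 different seeds. Poly(A) libraries read the host transcript and not the mature product: the Mir675 entry reached at most 13 counts in a library, that of Mir335 at most 3, and those of Mir483, Mir770 and Mir1906-1 at most 1. The values below therefore speak only of the hosts.

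Promoter sequences from RefSeq (GRCm38.p6, a build other than that of the files) were found for 8 of the 10 genes, at 15 start sites. Those of Meg3 and Peg3 are shown because the levels of these 2 genes moved together over the libraries, as given below, and because both hold the palindrome TGACGTCA, the cAMP response element. Peg3 moved about as closely with Mest (Pearson r of 0.83, against 0.84 with Meg3) and also with Plagl1 (0.77). No start site of Mest or Plagl1 held that palindrome, so it did not go with the shared levels in general. Each run is the 250 bases before the start site, 5′ to 3′ on the gene's strand, with TGACGTCA and, in Meg3, the stretch that holds TATAAA on either strand in capitals. Peg3 is chr7:6730420-6730669, minus strand, and Meg3 is chr12:109540746-109540995, plus strand.
Peg3: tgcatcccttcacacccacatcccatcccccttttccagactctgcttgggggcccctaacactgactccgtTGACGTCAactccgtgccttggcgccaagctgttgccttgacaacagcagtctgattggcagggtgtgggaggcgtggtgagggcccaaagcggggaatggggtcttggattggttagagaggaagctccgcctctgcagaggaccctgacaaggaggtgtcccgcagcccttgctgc
Meg3: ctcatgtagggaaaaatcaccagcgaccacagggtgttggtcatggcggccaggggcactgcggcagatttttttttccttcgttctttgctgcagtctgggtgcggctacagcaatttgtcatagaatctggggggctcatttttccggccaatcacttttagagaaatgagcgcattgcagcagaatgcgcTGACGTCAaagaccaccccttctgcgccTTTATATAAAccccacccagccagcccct
TGACGTCA, searched on both strands, was in 508 of 32851 mouse promoters of this length (1.55%) and in no other of the 15 start sites. It lies 178 bases before the Peg3 start and 57 bases before the Meg3 start. TATAAA, searched on both strands, was in 12.4% of the promoters and, among the 15, only in that of Meg3, in 2 overlapping copies on opposite strands. These are matches of letters, and binding was not measured.

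Library totals ran from 60984830 to 74691396 counts. Sensory neuron markers (10 genes such as Rbfox3 and Avil, none at 0 in every library) summed to 1266 to 15153 CPM (counts scaled to library size after TMM normalization) over the libraries, so neuronal RNA was present in each of them. Markers of other tissues moved with the groups. Granulocyte and marrow precursor markers (10 genes) summed to 768 to 2125 CPM in naive vehicle and 369 to 7280 CPM in DMM vehicle libraries, against 7942 to 27208 CPM in naive AP20187 and 16664 to 28783 CPM in DMM AP20187 libraries. Mature skeletal muscle markers (12 genes) summed to 2214 to 3417 CPM in naive with AP20187, to 2490 CPM in DMM vehicle 32, and to 56.0 to 627 CPM in the other 14 libraries. In bulk tissue, fewer cells of a type and less RNA per cell cannot be told apart, which holds for every result below.

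Per length and over all 19 libraries, H19 had the highest median of the 10 genes, at 73.8 FPKM (range 13.2 to 167). Meg3 followed with a median of 50.4 FPKM (6.34 to 90.5) and Igf2 with 42.5 FPKM (11.2 to 107). The ranges of these 3 genes overlapped widely, and their order differed between groups. In naive mice with vehicle the mean was highest for Meg3, at 67.8 ± 16.6 FPKM, with Igf2 at 40.5 ± 38.1 and H19 at 34.0 ± 25.2 FPKM (SD, n = 5). Meg3 also had the highest mean in DMM mice with vehicle, at 60.7 ± 30.2 FPKM, with H19 at 43.9 ± 36.4 FPKM (SD, n = 5). H19 had the highest mean in the AP20187 groups, at 92.1 ± 34.3 FPKM in naive (SD, n = 4) and 119 ± 41.6 FPKM in DMM mice (SD, n = 5). The median of H19 over all libraries was at the 97.9th percentile of all tested genes by median FPKM. Peg3 (median 12.6 FPKM), Cdkn1c (10.4), Mest (8.93), Plagl1 (6.55) and Grb10 (4.47) came next, again with overlapping ranges. Dlk1 was low at 0.633 FPKM, and Nctc1 had a median of 0, with counts in 9 of the 19 libraries. Grb10 varied least, by 1.75-fold from its lowest to its highest library, against 4.67-fold or more for each of the other 8 genes that had reads in every library.

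**Figure D1:**
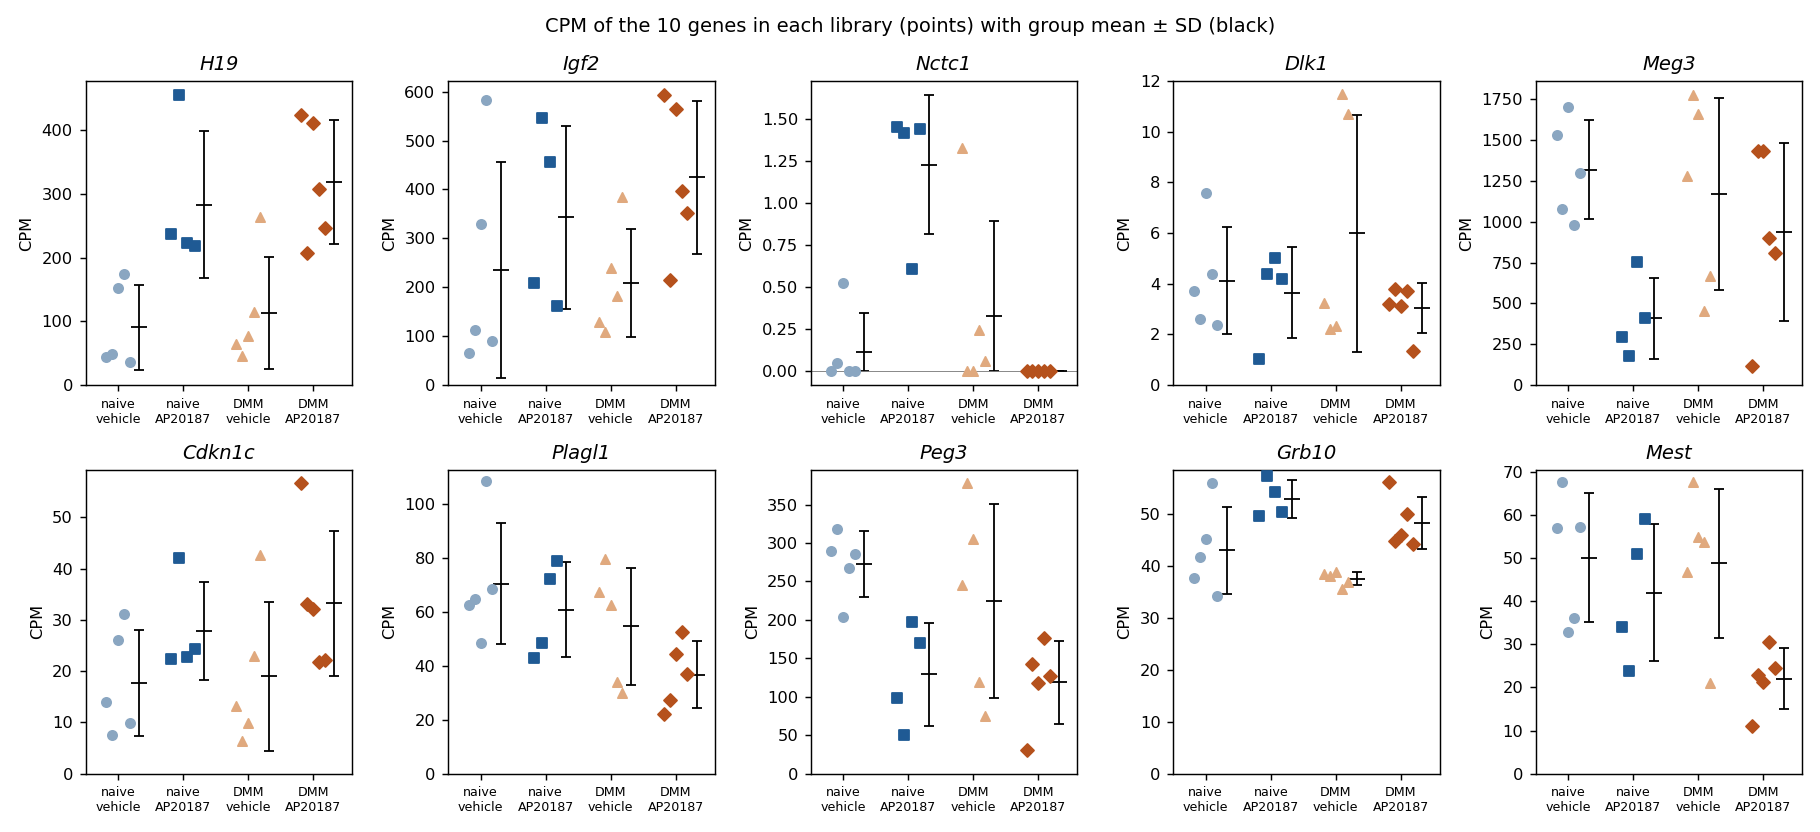
CPM of each of the 10 genes (vertical axes, linear, each from 0) in every library, by group. Points are libraries, and the black bars are the group mean ± SD, drawn down to 0 where the SD exceeds the mean. H19 is at 217 CPM or more in each naive AP20187 library and at 174 CPM or less in each naive vehicle library, and Nctc1 is at 0 in all 5 DMM AP20187 libraries.

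The first question was what AP20187 did to these genes in each surgical state. In DMM mice 4 of the 10 genes passed the threshold: H19 and Grb10 rose, and Mest and Nctc1 fell (edgeR quasi-likelihood test, adjusted p under 0.05 over all tested genes). Over all genes 23.8% passed in that comparison. Nctc1 was in this test because the filter on low counts ran over all 4 groups. With only the DMM groups in the fit, Nctc1 did not pass that filter and was not tested. In naive mice 1 of the 10, H19, passed, against 11.2% of all genes. Because the genes were chosen with such results known, these counts are not read against the background. The median log2 fold change of the 10 genes was -0.44 in DMM mice, beside -0.10 for all tested genes. In naive mice it was 0.06, beside -0.07.

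H19, the maternally expressed non-coding RNA, was higher with AP20187 in both surgical states. In naive mice with vehicle it was at 43.9, 48.5, 152, 174 and 35.6 CPM (mice 1 to 5), and with AP20187 at 237, 456, 223 and 217 CPM (mice 1, 3, 4 and 5). Every AP20187 library lay above every vehicle library there. DMM mice had 64.4, 45.6, 76.8, 114 and 264 CPM with vehicle (mice 32, 33, 34, 63 and 64) and 423, 207, 412, 307 and 246 CPM with AP20187 (mice 58 to 62). The DMM groups overlapped through DMM vehicle 64, and 3 of 5 AP20187 libraries lay above all vehicle libraries. The log2 fold change was 1.50 (SE 0.49) in DMM mice, with an edgeR adjusted p of 0.0357, and 1.64 (SE 0.52) in naive mice, with an edgeR adjusted p of 0.0467. The difference between those effects was -0.15 (SE 0.70, edgeR adjusted p = 0.987). The call in DMM mice was lost on leaving out DMM AP20187 58 or 60 or DMM vehicle 32, 33, 34 or 63 (edgeR adjusted p 0.0594 to 0.0881), and also without the filter on low counts (0.0563). The call in naive mice was lost without naive AP20187 1, 3 or 4 or naive vehicle 1, 2 or 5 (edgeR adjusted p 0.0528 to 0.169), and also without TMM normalization (0.0656), without the filter on low counts (0.0732) and with naive mice 1, 3, 4 and 5 only (0.107). With vehicle mice 32, 33 and 34 alone as the DMM control, the log2 fold change was 2.36 (edgeR adjusted p = 0.00326), and with mice 63 and 64 alone it was 0.76 (edgeR adjusted p = 0.537). The direction was up in each of these fits.

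H19 moved with markers of other cell types. Its Pearson correlation over the 19 libraries, on the log2 scale, was 0.91 with the summed granulocyte and marrow precursor markers, 0.88 with the endothelial, 0.88 with the proliferation, 0.84 with the fibroblast and connective tissue and 0.82 with the macrophage markers. With the sensory neuron markers it was -0.83, and with the spinal cord and brain markers -0.85. These are values from the same 19 libraries and 4 groups, given as a description. Within the vehicle groups, fibroblast and connective tissue markers (9 genes, including Col1a1 and Lum) summed to 1521 and 1407 CPM in naive vehicle 3 and 4, where H19 was high, and to 353 to 674 CPM in naive vehicle 1, 2 and 5. In DMM vehicle 64 they summed to 2394 CPM, the highest of all libraries. The fibroblast markers summed to 874 to 1765 CPM in DMM with AP20187 and to 980 to 1682 CPM in naive with AP20187. None of the 9 was at 0 in every library, 2 of the 9 rose in DMM mice and none passed in naive mice. Macrophage markers (10 genes, none at 0 in every library) summed to 92.1 to 507 CPM in naive vehicle and 171 to 648 CPM in DMM vehicle libraries, against 478 to 807 CPM in naive AP20187 and 247 to 1045 CPM in DMM AP20187 libraries, with 1 of the 10 higher in DMM mice and 3 in naive mice. Proliferation markers (8 genes, none at 0 in every library) summed to 52.3 to 517 CPM in DMM vehicle and 885 to 2098 CPM in DMM AP20187 libraries, and 8 of the 8 rose in DMM mice and 7 in naive mice. The part of any of these cell types, or of dividing cells, in the H19 difference was not tested.

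Igf2, the growth factor ligand that neighbours H19, was more variable. In naive mice it was at 65.2, 112, 329, 584 and 90.5 CPM with vehicle (mice 1 to 5) and at 208, 547, 455 and 161 CPM with AP20187 (mice 1, 3, 4 and 5). The naive groups overlapped, and the highest library of both was naive vehicle 4. In DMM mice it was at 128, 108, 239, 183 and 384 CPM with vehicle (mice 32, 33, 34, 63 and 64) and at 593, 215, 566, 397 and 352 CPM with AP20187 (mice 58 to 62), with 3 of 5 AP20187 libraries above all vehicle libraries. Its log2 fold change was 1.03 (SE 0.54, edgeR adjusted p = 0.176) in DMM mice and 0.54 (SE 0.56, edgeR adjusted p = 0.540) in naive mice. Igf2 thus passed in neither comparison. The DMM value was 1.42 against vehicle mice 32, 33 and 34 alone and 0.59 against mice 63 and 64 alone. The naive value ran from 0.24 without naive AP20187 3 to 1.20 without naive vehicle 4. Over the 19 libraries Igf2 had a correlation of 0.77 with the summed fibroblast and connective tissue markers, 0.77 with the endothelial and 0.73 with the meningeal and perineurial markers. The last (12 genes, none at 0 in every library) summed to 185 to 1036 CPM in naive vehicle and 222 to 1264 CPM in DMM vehicle libraries, against 321 to 1071 CPM in naive AP20187 and 352 to 638 CPM in DMM AP20187 libraries, and 1 of the 12 rose in each surgical state. The correlation of Igf2 was also 0.72 with the proliferation and 0.70 with the granulocyte and marrow precursor markers. With the sensory neuron and with the spinal cord and brain markers it was -0.73. The part of any of these cells in the Igf2 values was not tested.

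The level of Igf2 relative to H19 was taken as the ratio of their FPKM within a library. It was 0.476 to 0.656 in DMM with AP20187 and 0.667 to 1.43 in DMM with vehicle, so these groups did not overlap. In the naive groups it was 0.340 to 0.936 after AP20187 and 0.682 to 1.54 after vehicle, which overlapped through naive AP20187 4 and naive vehicle 1. All 9 AP20187 libraries had less Igf2 than H19 per length. This ratio was looked at after the values had been seen and has no test.

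**Figure D2:**
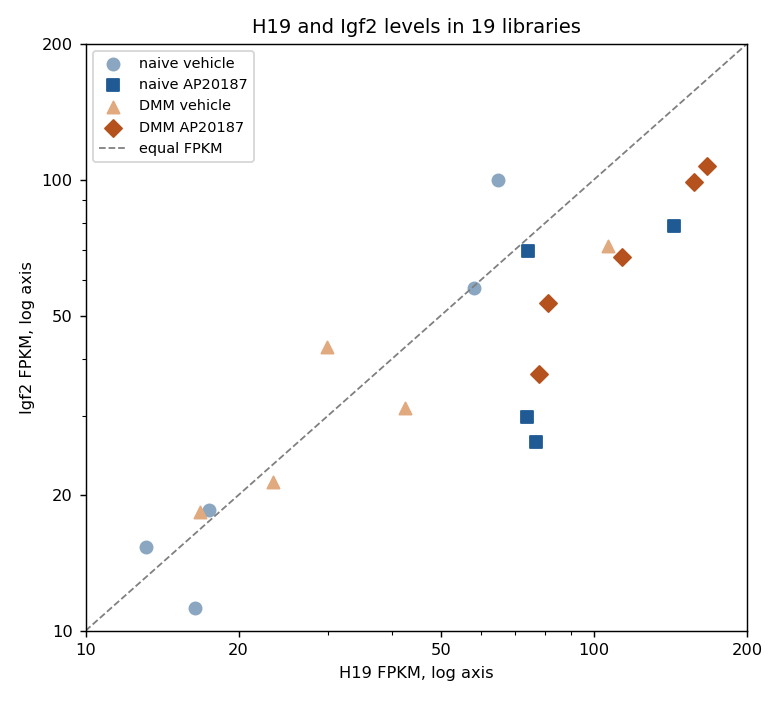
FPKM of Igf2 (vertical, log axis) against FPKM of H19 (horizontal, log axis) in 19 libraries, with a dashed line of equal FPKM. The 9 AP20187 libraries (dark squares and diamonds) lie below the line, while vehicle libraries lie on both sides of it, at ratios of 0.667 to 1.54.

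Nctc1, a non-coding RNA transcribed next to H19 across an enhancer of the locus that is known from skeletal muscle, had few or no reads in most libraries. In DMM with AP20187 all 5 libraries had 0 counts. In DMM with vehicle there were 86, 0, 0, 16 and 4 counts (mice 32, 33, 34, 63 and 64). In naive with AP20187 there were 84, 84, 36 and 89 counts (mice 1, 3, 4 and 5), and with vehicle 0, 3, 39, 0 and 0 (mice 1 to 5). The 4 naive AP20187 libraries thus lay above all naive vehicle libraries, while the DMM groups shared libraries at 0.

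A count of 0 allows up to 3 counts per library, a mean of 0.0462 CPM in DMM with AP20187, where floors cover counting error only. Against that floor the mean of DMM with vehicle, 0.325 CPM, was at least 7.04-fold higher, and that of naive with AP20187, 1.23 CPM, at least 26.6-fold higher. The DMM value rested on 1 library: without DMM vehicle 32 the mean of the other 4 was 0.0752 CPM, 1.63-fold over the same floor. The fall in DMM mice no longer passed without DMM vehicle 32 or without DMM AP20187 58, 59, 60 or 62 (edgeR adjusted p 0.0559 to 0.0988). It also did not pass by limma on log2(FPKM + 1) (adjusted p = 0.261) or by limma voom with sample weights (adjusted p = 0.254). With only the DMM groups in the fit, Nctc1 did not pass the filter on low counts and had no test. In naive mice, where values were higher with AP20187, the edgeR adjusted p was 0.181. There Nctc1 passed by limma on log2(FPKM + 1) (adjusted p = 0.0107), by limma voom with sample weights (adjusted p = 0.00138) and without naive vehicle 3 (edgeR adjusted p = 0.0392).

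The reads of Nctc1 followed those of skeletal muscle. The 10 libraries with 0 counts had summed mature muscle markers of 56.0 to 230 CPM, and the 9 with counts had 195 to 3417 CPM. The 6 libraries with over 30 counts were those with 627 CPM or more of muscle markers: the 4 naive AP20187 libraries, DMM vehicle 32 and naive vehicle 3. None of the 12 muscle markers was at 0 in every library. In naive mice 5 of the 12 rose with AP20187, and in DMM mice 4 of the 12 fell. The part of muscle RNA in the Nctc1 difference was not tested. For H19 the correlation with the summed muscle markers over the 19 libraries was 0.23, and the part of muscle RNA in its values was not tested.

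**Figure D3:**
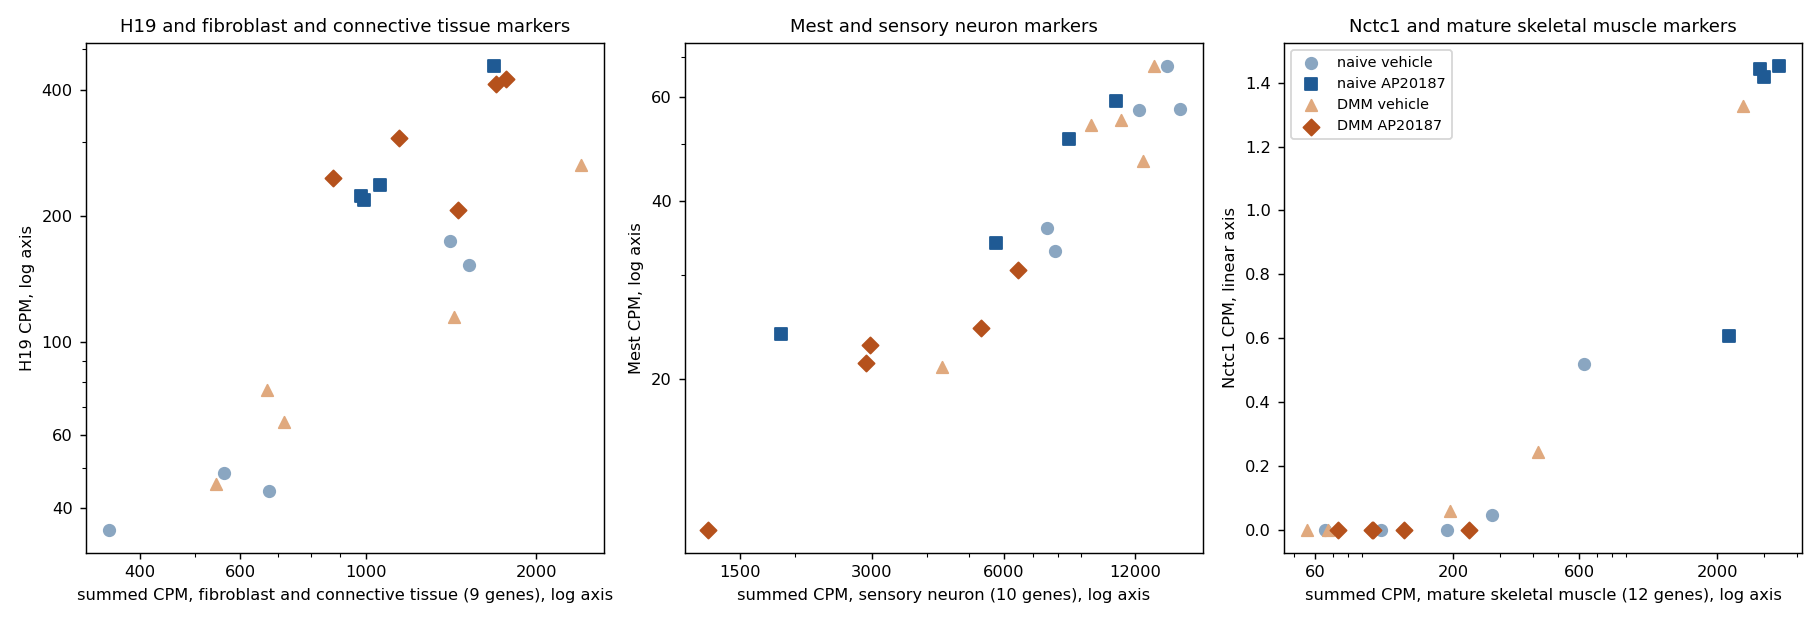
H19 CPM against summed CPM of 9 fibroblast and connective tissue markers (left, both axes log), Mest CPM against 10 sensory neuron markers (middle, both axes log) and Nctc1 CPM (linear axis) against 12 mature skeletal muscle markers (right, log axis). Each point is 1 of 19 libraries, and colour and shape give the group. Nctc1 is at 0 in 10 libraries with muscle markers at 230 CPM or less.

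Cdkn1c encodes an inhibitor of cyclin-dependent kinases that holds cells out of the cycle, and lies on chromosome 7 beyond Igf2. In DMM mice it was at 13.1, 6.37, 9.82, 23.0 and 42.6 CPM with vehicle (mice 32, 33, 34, 63 and 64) and at 56.7, 33.2, 32.2, 21.8 and 22.3 CPM with AP20187 (mice 58 to 62). In naive mice it was at 13.9, 7.46, 26.1, 31.2 and 9.85 CPM with vehicle and at 22.3, 42.1, 22.8 and 24.3 CPM with AP20187. Groups overlapped in both states. The log2 fold change was 0.81 (SE 0.47, edgeR adjusted p = 0.221) in DMM mice and 0.66 (SE 0.49, edgeR adjusted p = 0.378) in naive mice. The DMM value was 1.76 against vehicle mice 32, 33 and 34 alone (edgeR adjusted p = 0.00792), 0.036 against mice 63 and 64 alone (edgeR adjusted p = 0.987), 1.35 without DMM vehicle 64 (edgeR adjusted p = 0.0251) and 1.56 by limma voom with sample weights (adjusted p = 9.41e-04). Its 4 highest vehicle libraries, DMM vehicle 63 and 64 and naive vehicle 3 and 4, were the 4 vehicle libraries with the most fibroblast marker RNA, and the correlation with the summed markers was 0.91 over the 19 libraries. The correlation was also 0.85 with the macrophage, 0.78 with the endothelial, 0.74 with the granulocyte and marrow precursor and 0.73 with the proliferation markers. With the sensory neuron markers it was -0.84. The part of these cells in the Cdkn1c values was not tested.

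Grb10, an adaptor protein that binds the insulin and IGF receptors and dampens their signal, had the smallest change that passed. DMM mice had 38.5, 38.2, 38.9, 35.7 and 37.0 CPM with vehicle and 56.3, 44.9, 46.1, 50.04 and 44.3 CPM with AP20187. All 5 AP20187 libraries lay above all 5 vehicle libraries. This is a log2 fold change of 0.36 (SE 0.13, edgeR adjusted p = 0.0469). This call was lost on leaving out any 1 of the 10 DMM libraries (58, 59, 60, 61, 62, 32, 33, 34, 63 or 64), with edgeR adjusted p of 0.0528 to 0.131, and also without TMM normalization (edgeR adjusted p = 0.0778). In naive mice it was at 37.8, 41.7, 45.3, 56.1 and 34.3 CPM with vehicle and at 49.7, 57.5, 54.4 and 50.4 CPM with AP20187, with a log2 fold change of 0.30 (SE 0.13, edgeR adjusted p = 0.149). Naive vehicle 4 overlapped the AP20187 group there. Grb10 passed in naive mice without that library (0.41, edgeR adjusted p = 0.0362) and by limma voom with sample weights (0.40, adjusted p = 0.0226). Endothelial markers (6 genes, none at 0 in every library) moved with Grb10: they summed to 63.9 to 306 CPM in naive vehicle and 67.1 to 146 CPM in DMM vehicle libraries, against 210 to 477 CPM in naive AP20187 and 158 to 294 CPM in DMM AP20187 libraries. Of the 6, 3 rose in DMM mice and 2 in naive mice, and the correlation of Grb10 with their sum was 0.87 over the 19 libraries. Naive vehicle 4, the vehicle library highest in Grb10, was also the vehicle library highest in these markers. The part of endothelial cells in the Grb10 difference was not tested.

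Mest, a paternally expressed gene for a protein of the hydrolase fold family, was the member whose fall in DMM mice passed in each of the 10 fits that left out 1 DMM library. It was at 46.7, 67.7, 54.9, 53.7 and 21.0 CPM with vehicle (mice 32, 33, 34, 63 and 64) and at 11.2, 22.9, 21.3, 30.6 and 24.4 CPM with AP20187 (mice 58 to 62). A single vehicle library, DMM vehicle 64, lay within the AP20187 range. With AP20187 it had a log2 fold change of -1.14 (SE 0.32, edgeR adjusted p = 0.0168). With vehicle mice 63 and 64 alone as the control it was -0.71, and the edgeR adjusted p was 0.340. In naive mice it was at 56.9, 67.6, 33.0, 36.0 and 57.1 CPM with vehicle and at 34.0, 23.9, 50.8 and 59.0 CPM with AP20187, with overlapping groups and a log2 fold change of -0.26 (SE 0.34, edgeR adjusted p = 0.627). The difference between the DMM and naive effects, -0.89 (SE 0.46), did not pass (edgeR adjusted p = 0.701).

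Mest also moved with the neuronal content of the libraries. The sensory neuron markers summed to 7529 to 15153 CPM in naive vehicle and 4325 to 13198 CPM in DMM vehicle libraries, against 1861 to 10825 CPM in naive AP20187 and 1266 to 6451 CPM in DMM AP20187 libraries. In DMM mice 7 of the 10 markers fell, and none of the 10 passed in naive mice. The lowest library of both measures was DMM AP20187 58, with Mest at 11.2 CPM and the markers at 1266 CPM. DMM vehicle 64, the vehicle library lowest in Mest, was also the vehicle library lowest in those markers, at 4325 CPM. Over the 19 libraries the correlation of Mest with the summed markers was 0.93. The part of neuronal content in the Mest difference was not tested.

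**Figure D4:**
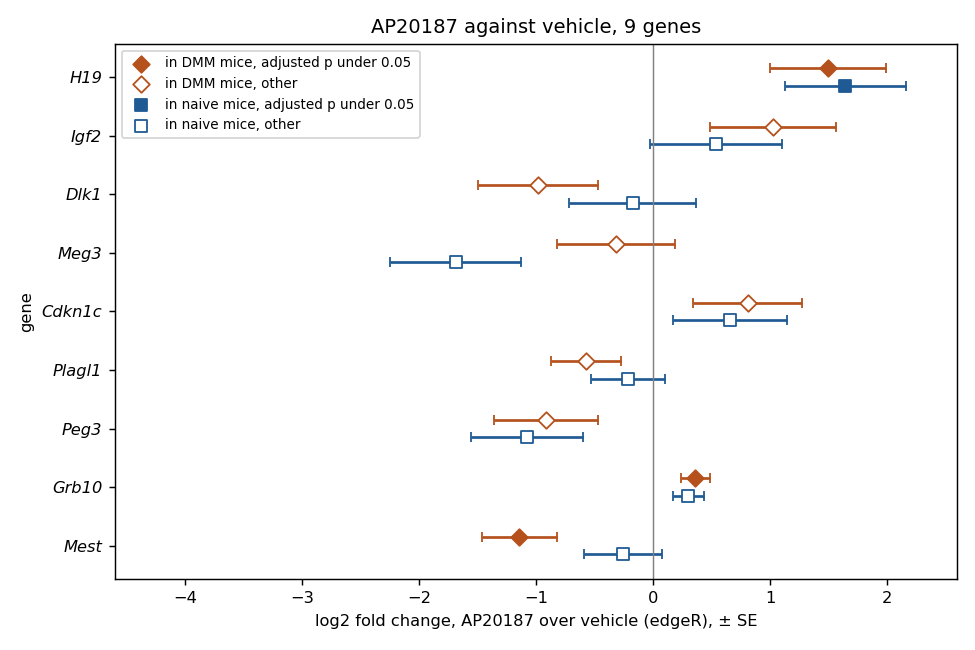
Log2 fold change of AP20187 over vehicle ± SE from edgeR (horizontal axis) for 9 genes, in DMM mice (diamonds) and naive mice (squares), filled where the adjusted p was under 0.05. H19 is filled in both, at 1.50 and 1.64, and Grb10 and Mest in DMM mice. Nctc1 is left out because a whole group had 0 counts.

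Meg3, the maternally expressed non-coding RNA of the Dlk1 locus that is abundant in neurons, had lower values with AP20187 in naive mice, just short of the threshold in the main test. It was at 1535, 1082, 1703, 982 and 1298 CPM with vehicle (mice 1 to 5) and at 295, 178, 753 and 413 CPM with AP20187 (mice 1, 3, 4 and 5), so the groups did not overlap. The log2 fold change was -1.69 (SE 0.56, edgeR adjusted p = 0.0578). It passed at a like size by DESeq2 (-1.71, adjusted p = 0.0105), by limma on log2(FPKM + 1) (-1.96, adjusted p = 0.0294), by limma voom with sample weights (-1.56, adjusted p = 0.0273), with only the naive groups in the edgeR fit (-1.68, adjusted p = 0.0168) and without naive AP20187 4 (-2.16, edgeR adjusted p = 0.0324). In 11 of 18 alternatives Meg3 did not pass, with edgeR adjusted p up to 0.193. Among these were no TMM normalization (edgeR adjusted p = 0.0513) and no filter on low counts (0.0900). DMM mice had 1278, 1780, 1659, 456 and 668 CPM with vehicle (mice 32, 33, 34, 63 and 64) and 117, 1435, 1432, 899 and 810 CPM with AP20187 (mice 58 to 62). Those groups overlapped widely, with a log2 fold change of -0.32 (SE 0.50, edgeR adjusted p = 0.701), and DMM AP20187 58 was the lowest of all 19 libraries. The difference between the effects was 1.37 (SE 0.74, edgeR adjusted p = 0.719). Markers of neural tissue moved with Meg3 in part. The spinal cord and brain markers (8 genes, none at 0 in every library) summed to 110 to 203 CPM in naive vehicle and 68.7 to 173 CPM in DMM vehicle libraries, against 36.7 to 164 CPM in naive AP20187 and 45.3 to 97.2 CPM in DMM AP20187 libraries. Of the 8, 4 fell with AP20187 in naive mice and none passed in DMM mice, and with AP20187 2 were higher in DMM than in naive mice. Over the 19 libraries the correlation of Meg3 was 0.62 with these markers and 0.61 with the sensory neuron markers, whose sums are given for Mest. By group, Meg3 and the sensory neuron markers differed. In DMM mice 7 of those 10 markers fell, while Meg3 had -0.32. In naive mice, where Meg3 had -1.69, none of the 10 passed. The part of neural content in the Meg3 difference was not tested.

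Dlk1, a membrane protein related to the Notch ligands and the paternally expressed neighbour of Meg3, was at 1.02 to 11.5 CPM in all 19 libraries. In DMM mice it was at 3.22, 2.22, 2.35, 11.5 and 10.7 CPM with vehicle and at 3.21, 3.79, 3.11, 3.70 and 1.36 CPM with AP20187. The high values were those of DMM vehicle 63 and 64. Fibroblast and connective tissue markers summed to 1434 and 2394 CPM in those libraries, and to 543 to 716 CPM in DMM vehicle 32, 33 and 34. Over the 19 libraries the correlation of Dlk1 was 0.61 with Schwann cell, 0.59 with erythroid, 0.58 with satellite glia and 0.54 with fibroblast markers. The part of these cells in the Dlk1 values was not tested. Against all vehicle mice its log2 fold change was -0.98 (SE 0.51, edgeR adjusted p = 0.173) and it was 0.22 against vehicle mice 32, 33 and 34 alone, while against mice 63 and 64 alone it was -1.83 (edgeR adjusted p = 0.0480), so the direction and the call depended on which vehicle mice were used. In naive mice it was at 2.35 to 7.57 CPM with vehicle and at 1.02 to 5.03 CPM with AP20187, with a log2 fold change of -0.17 (SE 0.54, edgeR adjusted p = 0.851).

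Peg3 and Plagl1 encode zinc finger proteins. Peg3 was at 290, 318, 203, 268 and 286 CPM in naive mice with vehicle and at 99.0, 49.98, 198 and 170 CPM with AP20187, with every AP20187 library below every vehicle library. In DMM mice it was at 246, 378, 305, 119 and 75.3 CPM with vehicle and at 30.9, 142, 117, 176 and 128 CPM with AP20187, where DMM vehicle 63 and 64 lay within the AP20187 range. The log2 fold change was -1.08 (SE 0.48, edgeR adjusted p = 0.146) in naive mice and -0.92 (SE 0.45, edgeR adjusted p = 0.141) in DMM mice. Plagl1 was at 29.9 to 79.5 CPM in DMM with vehicle and 22.0 to 52.7 CPM with AP20187, and at 48.3 to 108 CPM in naive with vehicle and 43.1 to 79.0 CPM with AP20187. Its log2 fold change was -0.57 (SE 0.30, edgeR adjusted p = 0.172) in DMM mice and -0.21 (SE 0.32, edgeR adjusted p = 0.674) in naive mice. Both values in DMM mice depended on the vehicle mice used. Against mice 32, 33 and 34 alone Peg3 was at -1.38 (edgeR adjusted p = 0.0175) and Plagl1 at -0.93 (edgeR adjusted p = 0.0180), which both passed, and against mice 63 and 64 alone they were at 0.33 and 0.22, which did not. Both also passed by limma voom with sample weights (adjusted p of 0.00662 and 0.00931), and Peg3 passed without DMM vehicle 64 (-1.14, edgeR adjusted p = 0.0451). The sensory neuron markers moved with both genes: over the 19 libraries the correlation with their sum was 0.89 for Peg3 and 0.71 for Plagl1. In DMM mice 7 of the 10 markers fell. DMM vehicle 64 was the vehicle library lowest in them, at 4325 CPM, and also the vehicle library lowest in Peg3. The part of neuronal content in the Peg3 and Plagl1 values was not tested.

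Counted by overlap, the CPM ranges of the AP20187 and vehicle groups were apart for 1 of the 10 genes in DMM mice, Grb10, beside 12.9% of all tested genes. In naive mice they were apart for 4 of the 10, H19, Nctc1, Meg3 and Peg3, beside 15.5% of all tested genes.

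The second question was whether surgery changed these genes. With vehicle, none of the 10 passed between DMM and naive mice, and none of all tested genes did by edgeR (0.0%), with 377 genes at an unadjusted p under 0.05. DESeq2 called 0 genes there and limma voom with sample weights 1. No member was among those 377. The log2 differences of DMM over naive ran from -0.37 for Plagl1 to 0.54 for Dlk1 among the 9 genes other than Nctc1. The value of Dlk1 rested on DMM vehicle 63 and 64: with DMM vehicle 32, 33 and 34 only it was -0.67, and by limma voom with sample weights -0.20. With AP20187, none of the 10 passed by edgeR, beside 0.702% of all genes, and 4 had an unadjusted p under 0.05. The 5 DMM libraries at 0 counts of Nctc1 lay below the 4 naive libraries at 36 to 89 counts (edgeR adjusted p = 0.0811). Nctc1 passed there by DESeq2 (adjusted p = 0.00181), by limma on log2(FPKM + 1) (adjusted p = 0.0105), by limma voom with sample weights (adjusted p = 0.00447) and with only the groups compared in the edgeR fit (adjusted p = 0.0107). On the log2 scale of DMM over naive, Mest differed by -0.93 (SE 0.33, edgeR adjusted p = 0.178; -1.03 and adjusted p = 0.0261 by limma voom, where it passed), Plagl1 differed by -0.73 (SE 0.31, edgeR adjusted p = 0.255) and Meg3 by 1.20 (SE 0.55, edgeR adjusted p = 0.282). In the interaction, which compares the response to AP20187 between operated and naive mice, none of the 10 passed by edgeR, beside 0.114% of all genes, and 1 had an unadjusted p under 0.05. Nctc1 passed there by DESeq2 (adjusted p = 0.0190). The comparisons share control libraries, so their values for a gene are not independent.

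The members fell into sets that varied alike over the 19 libraries. H19 correlated with Igf2 at a Pearson r of 0.87 on log2 CPM (Spearman 0.83) and with Cdkn1c at 0.89 (0.74). Meg3 correlated with Peg3 at 0.84 (0.75), and Peg3 with Mest at 0.83 (0.80) and with Plagl1 at 0.77 (0.73). H19 and Mest ran against each other, at -0.80 (-0.81). After the group means were taken out, the Pearson values were 0.88 for H19 with Igf2, 0.88 for H19 with Cdkn1c, 0.85 for Meg3 with Peg3 and -0.79 for H19 with Mest, so these relations were present between mice of the same group. Neighbours on the chromosome did not always vary alike: Dlk1 and Meg3 had -0.03, and H19 and Nctc1 0.19. The libraries share depth and tissue make-up, and the values are a description with no test.

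Among 14542 tested genes of 1 CPM or more, those most like H19 over the 19 libraries by Pearson correlation of log2 CPM were Sfrp4 (0.99), Prrx1 (0.98), Fbln1 (0.98), Emp1 (0.97), Lbp (0.97) and Rhoj (0.97). Sfrp4 encodes a secreted inhibitor of Wnt signals, Prrx1 a transcription factor of mesenchyme and Fbln1, one of the fibroblast markers used here, an extracellular matrix protein. Those most like Igf2 were Tspan11 (0.97), Slc47a1 (0.96), Col12a1 (0.96), Rspo3 (0.95), Slc35g1 (0.95) and Tnfrsf11b (0.95). Slc47a1, a transporter, was also on the list of meningeal and perineurial markers. Those most like Meg3 were Miat (0.99), C78859 (0.98), Snhg11 (0.98), Mir124a-1hg (0.98), Slc12a3 (0.97) and Cdr1os (0.97). Long non-coding RNAs are among these, such as Miat, Snhg11 and Mir124a-1hg.

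Beyond the members, 53 further genes described as imprinted in mouse were listed, of which 49 were tested. In DMM mice 1 rose with AP20187 and 12 fell, 26.5% of those tested and thus near the 23.8% of all genes, with a median log2 fold change of -0.29 beside -0.10 for all genes. The 6 with the smallest adjusted p all fell. Snrpn, a splicing-related gene of the Prader-Willi region that is high in neurons, went from 718 ± 172 to 337 ± 110 CPM (SD, n = 5 each; log2 fold change -1.09, edgeR adjusted p = 0.00909). Ndn, a neuronal gene of the same region, went from 115 ± 22.9 to 59.5 ± 11.5 CPM with no overlap (-0.96, edgeR adjusted p = 0.00593). Gnas, which encodes the stimulatory G protein subunit, went from 951 ± 125 to 596 ± 113 CPM, also without overlap (-0.68, edgeR adjusted p = 0.0135). Slc22a18, a transporter gene of the Cdkn1c cluster (-1.08), Cobl, an actin regulator (-1.38), and Zrsr1 (-0.57) had edgeR adjusted p of 0.00425 to 0.0128. The gene that rose was Igf2r. In naive mice 1 of the 49 fell (2.04%, beside 11.2% of all genes), the potassium channel gene Kcnk9 (4.34 ± 1.33 CPM with vehicle, n = 5, and 1.39 ± 1.16 with AP20187, n = 4; log2 fold change -1.64, edgeR adjusted p = 0.0239). The count of 1 was 0 without naive AP20187 1 or 3 or naive vehicle 1 or 2, 2 without naive vehicle 4, 3 without naive vehicle 3 and 6 without naive AP20187 5. It was also 6 by DESeq2, 8 by limma voom with sample weights and 10 by limma on log2(FPKM + 1), so the share in naive mice depended on the method and on single libraries. The Kcnk9 call was lost without naive AP20187 1 or 3 or naive vehicle 1 or 2 (edgeR adjusted p 0.0541 to 0.0877). Sensory neuron markers fell in the same DMM comparison, as given for Mest. Without DMM vehicle 33 the count of imprinted genes that passed in DMM mice went from 13 to 8. None of the 49 passed in the comparisons of DMM with naive mice or in the interaction.

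Of 22 listed genes of the IGF axis, the receptors, binding proteins and modifiers through which Igf2 acts, 21 were tested. In DMM mice 3 rose with AP20187 and none fell, 14.3% of those tested, which is below the 23.8% of all genes. Insr, the insulin receptor, went from 37.6 ± 5.61 to 76.0 ± 11.8 CPM (SD, n = 5 each; log2 fold change 1.01, edgeR adjusted p = 9.99e-04). Igf2r, which takes Igf2 up for degradation, went from 30.6 ± 10.7 to 54.5 ± 8.36 CPM (0.83, edgeR adjusted p = 0.0165), and Igf1r, the main signalling receptor of Igf2, from 47.5 ± 11.7 to 73.8 ± 13.7 CPM (0.63, edgeR adjusted p = 0.0284). The Igf2r call was lost without DMM vehicle 32 (edgeR adjusted p = 0.0503) and the Igf1r call on leaving out DMM vehicle 32 or 63 or DMM AP20187 58 or 62. The count of 3 became 1 without DMM vehicle 32 and 6 without DMM vehicle 64. Granulocyte and marrow precursor markers (9 of 10), proliferation markers (8 of 8) and endothelial markers (3 of 6) rose in the same DMM comparison, and their part in these changes was not tested.

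In naive mice 5 genes of the IGF axis rose and 1 fell, 28.6% of those tested beside 11.2% of all genes. Insr went from 41.5 ± 10.8 (n = 5) to 72.6 ± 12.3 CPM (n = 4; log2 fold change 0.81, edgeR adjusted p = 0.00947), and Irs1, a docking protein of both receptors, from 7.93 ± 2.43 to 16.04 ± 3.18 CPM (1.02, edgeR adjusted p = 0.0101). The binding proteins Igfbp4 and Igfbp7, which hold IGF ligands outside cells, had log2 fold changes of 1.46 and 1.59, and Stc1, an inhibitor of a protease that cuts Igfbp4, had 2.07, with edgeR adjusted p of 0.0191 to 0.0364. The calls of Igfbp4 and Igfbp7 were lost without naive AP20187 1 or 3 or naive vehicle 1, 2 or 5, and that of Stc1 without naive AP20187 3 or naive vehicle 2. The count of 6 became 2 or 3 without naive AP20187 1 or 3 or naive vehicle 1, 2 or 5. Markers of other cell types moved in the same naive comparison: 10 of 10 granulocyte and marrow precursor markers, 3 of 10 macrophage markers and 2 of 6 endothelial markers rose. Their part in the changes of the IGF axis was not tested. The gene that fell was Irs4, named here after its values were seen: it had 0 counts in all naive AP20187 libraries and a mean of 0.110 CPM with vehicle. Between DMM and naive mice with AP20187, the RNA-binding protein gene Igf2bp2 was lower in DMM mice (2.23 ± 0.710, n = 5, against 5.51 ± 1.01 CPM, n = 4; log2 difference -1.31, edgeR adjusted p = 0.0488). That call was lost on leaving out any 1 of these 9 libraries.

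Of 14 listed Notch pathway genes, the family to which Dlk1 is related, 2 rose and 2 fell in DMM mice with AP20187, 28.6% of those tested and near the 23.8% of all genes. Against vehicle mice 63 and 64 alone the count was 1. The receptor gene Notch1 went from 30.4 ± 10.6 to 83.0 ± 19.6 CPM (SD, n = 5 each; log2 fold change 1.45, edgeR adjusted p = 0.00173), and Notch3, a receptor of mural cells, had 0.90. The target gene Hey1 went from 21.4 ± 3.38 to 12.2 ± 2.19 CPM (-0.82, edgeR adjusted p = 0.00444), and the ligand gene Jag2 had -1.31. The calls of Notch3 and Jag2 (edgeR adjusted p of 0.0435 and 0.0319) were the less stable: Notch3 was lost on leaving out any 1 DMM library other than DMM AP20187 61, and Jag2 on leaving out DMM vehicle 32, 33 or 34 or DMM AP20187 58, 59 or 60, so that the count of 4 became 2 without any of these 6 libraries. In the same DMM comparison 3 of 6 endothelial, 8 of 8 proliferation and 9 of 10 granulocyte and marrow precursor markers rose and 7 of 10 sensory neuron markers fell, and their part in the changes of the Notch genes was not tested. In naive mice none of the 14 passed by edgeR, where 3 had an unadjusted p under 0.05. The count was 2 by DESeq2, 2 by limma on log2(FPKM + 1), 3 by limma voom with sample weights, 2 without naive vehicle 4 and 1 without naive AP20187 1 or 5.

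Of 14 listed cyclin-dependent kinase inhibitors, G1 cyclins and their kinases, the group in which Cdkn1c acts, 5 rose and none fell in DMM mice, 35.7% of those tested beside 23.8% of all genes. That count was 10 by limma voom with sample weights, 9 against vehicle mice 32, 33 and 34 alone and 1 against mice 63 and 64 alone. The kinase gene Cdk2 went from 14.7 ± 11.3 to 77.5 ± 19.8 CPM (SD, n = 5 each; log2 fold change 2.40, edgeR adjusted p = 0.00493), the cyclin gene Ccnd3 from 80.8 ± 69.7 to 349 ± 105 CPM (2.11, edgeR adjusted p = 0.00544) and the kinase gene Cdk6 from 12.8 ± 4.96 to 48.9 ± 16.02 CPM (1.94, edgeR adjusted p = 0.00106). The cyclin gene Ccne2 (1.50) and the inhibitor gene Cdkn2d (0.59) also rose, the latter not without DMM AP20187 62 or DMM vehicle 33 or 34. In naive mice Ccnd3 (1.95), Cdk2 (1.82) and Cdk6 (1.35) rose, 21.4% of those tested beside 11.2% of all genes, with edgeR adjusted p of 0.0176 to 0.0379. Those calls were lost without naive AP20187 1 or 3, and in part without naive vehicle 1, 2 or 5, so that the count of 3 became 0 without naive AP20187 1 or 3 and 1 without naive vehicle 1 or 2. Between DMM and naive mice with AP20187, Cdkn2d was higher in DMM mice (log2 difference 0.87, edgeR adjusted p = 0.0441), a call lost on leaving out any 1 of the 9 libraries other than DMM AP20187 61. Proliferation markers (8 genes such as Mki67) summed to 88.2 to 352 CPM in naive vehicle and 52.3 to 517 CPM in DMM vehicle libraries, against 369 to 1107 CPM in naive AP20187 and 885 to 2098 CPM in DMM AP20187 libraries. None of the 8 was at 0 in every library, and 8 rose in DMM mice and 7 in naive mice. The part of dividing cells in these differences was not tested.

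Of 4 listed adaptors related to Grb10 or sharing its receptors, Grb14, a member of the same adaptor family, fell in DMM mice, from 25.8 ± 2.41 to 15.4 ± 3.04 CPM with no overlap (SD, n = 5 each; log2 fold change -0.74, edgeR adjusted p = 0.00200), while Grb10 rose. It was the 1 of the 4 that passed there, 25.0% of those tested and near the 23.8% of all genes. In the same DMM comparison 7 of 10 sensory neuron and 3 of 7 Schwann cell markers fell. Granulocyte and marrow precursor (9 of 10) and proliferation markers (8 of 8) rose there, and the part of these cells in the Grb14 difference was not tested. With AP20187, Grb14 was also lower in DMM than in naive mice (log2 difference -0.71, edgeR adjusted p = 0.0379), where 0.702% of all genes passed, a call lost without DMM AP20187 58, 59, 60 or 62 or naive AP20187 1, 4 or 5. None of the 4 passed by edgeR in naive mice with AP20187 against vehicle, where 0 had an unadjusted p under 0.05, and the count was 0 in each of the 18 alternatives.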

How the data were processed

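Poly(A) RNA of pooled ganglia was sequenced as stranded libraries, per the labels' protocols. The submitters' processing notes name cutadapt, HISAT2, StringTie and the build GRCm39, without versions, and the counting settings are not given in the sources used here. Counts per gene, in whole numbers and not normalized, and FPKM per gene (fragments relative to the length of the gene and the size of the library) were deposited by the authors. Counts of the 10 genes were equal in both deposited tables. Of the count matrix, 6448 entries without a gene name held 0.414% to 1.72% of a library's counts and stayed out of the tests.

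The test of the counts was edgeR 4.0.16 under R 4.3.3 (quasi-likelihood F test, two-sided, TMM, filterByExpr with a minimum count of 10, which kept 22778 genes) in 1 model of 4 groups over 19 libraries with 15 residual degrees of freedom. Benjamini-Hochberg adjustment ran over the whole set of tested genes, per contrast, with a threshold of 0.05. The procedure was tested on simulated data. CPM use TMM library sizes, and correlations between genes use log2 CPM with a prior count of 2. Correlations with summed markers use log2 CPM of the gene without a prior count and log2 of the summed CPM plus 1. FPKM were used for levels between genes. Labels do not say how mice were bred or processed together, so p-values measure the spread between these samples.

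The members, the gene and marker lists and the rules were chosen with earlier results of these data known. From each list the text names at most 6 genes per contrast, by smallest adjusted p among genes that passed with a mean of 1 CPM or more in a group. The alternatives were DESeq2 1.42.0, no TMM, other filters, limma 3.58.1 on log2(FPKM + 1), limma voom with sample weights, fewer groups, parts of the DMM vehicle group, a replicate block and leaving out each library. Same-numbered naive mice were not treated as pairs. Sequences are from RefSeq (GRCm38.p6) and positions from the files.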

Additional observations from a re-analysis of the deposited data

Results flagged for a closer look

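A library was set apart where it lay far from the rest of its group by Dixon's criterion (the gap to the nearest library divided by the range of the group). Chance sets apart about 1 in 20 groups, and 6 of the 39 sets of values looked at were set apart. H19 in naive AP20187 3 was the highest of its group at 455.6 CPM, with the next at 237 CPM, and Cdkn1c was the highest of that group in the same library at 42.1 CPM, with the next at 24.3 CPM. Nctc1 was the highest of its group in naive vehicle 3 at 0.520 CPM, with the next at 0.0466 CPM, and in DMM vehicle 32 at 1.33 CPM, with the next at 0.242 CPM. Nctc1 was the lowest of its group in naive AP20187 4 at 0.605 CPM, with the next at 1.42 CPM. Dlk1 was the lowest of its group in DMM AP20187 62 at 1.36 CPM, with the next at 3.11 CPM.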

How the results depend on the processing

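The count of the 10 genes that passed in DMM mice (4) was 2 without the filter on low counts, 2 by limma on log2(FPKM + 1), 6 by limma voom with sample weights, 6 with vehicle mice 32, 33 and 34 only and 1 with mice 63 and 64 only, and 1 to 5 on leaving out 1 library. The 1 with mice 63 and 64 only was Dlk1, and all 4 calls were lost there. In naive mice (1) it was 2 by DESeq2, 0 without TMM, 0 without the filter, 3 by limma on log2(FPKM + 1), 4 by limma voom with sample weights and 2 with only the groups compared, and 0 to 2 on leaving out 1 library. With the replicate block over naive mice 1, 3, 4 and 5 it was 3 (H19, Meg3 and Peg3), against 1 (Meg3, with H19 lost) in the same mice without the block, an alternative added after seeing the data. Same-numbered mice did not deviate together in every pair (correlations of 0.02, 0.30, -0.08 and 0.18), and only mouse 3 correlated best with its own number, so the numbers were not taken as pairs. With AP20187, the count between DMM and naive mice (0) was 1 by DESeq2, 1 by limma on log2(FPKM + 1), 2 by limma voom (with Mest) and 1 with only the groups compared, and in the interaction (0) it was 1 by DESeq2, each including Nctc1. With vehicle it was 0 in all alternatives run.

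Among the values given for the 10 genes, directions turned in these cases, and no turned value passed. Of the surgery and interaction values not given, those of Igf2, Cdkn1c, Peg3 and Grb10, 33 of 248 alternatives turned and 0 passed. Dlk1, Plagl1 and Peg3 in DMM mice did pass in their main direction in other alternatives, as given for each gene. In DMM mice with AP20187, the log2 fold change of Dlk1 was 0.073 by limma voom and 0.22 with vehicle mice 32, 33 and 34 only, and with vehicle mice 63 and 64 only that of Meg3 was 0.76, of Plagl1 0.22 and of Peg3 0.33. Between DMM and naive mice with vehicle, Meg3 was at 0.037 and Dlk1 at -0.20 by limma voom, and with vehicle mice 32, 33 and 34 only Dlk1 was at -0.67, Meg3 at 0.25, H19 at -0.54 and Mest at 0.17. In the interaction, H19 was at 0.72 and Dlk1 at 0.40 with mice 32, 33 and 34 only, Dlk1 at 0.12 by limma voom, and Plagl1 at 0.41 with mice 63 and 64 only. On leaving out 1 library at a time, Dlk1 in naive mice ran from -0.37 to 0.16 (positive without naive AP20187 1 or naive vehicle 3) and the H19 interaction from -0.52 to 0.44 (positive without DMM vehicle 64, naive AP20187 3 or naive vehicle 1, 2 or 5). In the same way, between DMM and naive mice with vehicle, H19 ran from -0.27 to 0.69 (negative without DMM vehicle 64), Meg3 from -0.38 to 0.028 (positive without DMM vehicle 63), Mest from -0.19 to 0.15 (positive without DMM vehicle 64 or naive vehicle 1 or 2) and the fitted value of Nctc1 from -0.60 to 4.61 (negative without DMM vehicle 32).

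The 13 further imprinted genes that passed in DMM mice were 26 by limma voom, 20 with vehicle mice 32, 33 and 34 only and 1 with mice 63 and 64 only, and the 1 in naive mice was 10 by limma on log2(FPKM + 1). The 3 IGF axis genes in DMM mice were 5 by DESeq2 and 11 by limma voom. The causes of these changes were not tested. Over all genes in naive mice, 1962 of the 2548 that passed were higher with AP20187, and 1550 of 2465 without TMM. Among the 10 genes depth limits Nctc1, with at most 89 counts in a library.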
